A study of Aquarana catesbeiana with 18 samples.

Results

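The genes described here are 7 genes of skeletal muscle in the American bullfrog, Aquarana catesbeiana: ACTN3, PVALB, PYGM, TNNC2, TNNI2, MYBPC1 and LOC141102624, whose symbol is TNNC1. They were taken by identifier from a table of 24636 genes, and each had a row in all 18 libraries. The choice used no measured value of the libraries, but it was made with earlier results of these data known. The row of MYBPC1 carries MYBPC3 in the symbol column, while its identifier and its description name myosin binding protein C1, so it is treated as MYBPC1.

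The libraries are RNA sequencing of total RNA from skin of the back, liver and eyes of albino frogs and of wild-type frogs. The 6 groups, each with 3 libraries, are albino skin, wild-type skin, albino liver, wild-type liver, albino eyes and wild-type eyes. The genotype of the first kind is spelled abino in the sample labels and albino in the title of the series. No age, sex, treatment or mutated gene is given in the labels. Nothing in them tells if each replicate was its own animal, so p-values measure only the spread between these libraries.

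Skeletal muscle shortens when myosin of the thick filament pulls on actin of the thin filament. Calcium released in the fibre binds troponin C, troponin I then lets go of actin, and the filaments slide. The thin filaments are anchored by alpha-actinin at the Z disc, parvalbumin soaks up calcium during relaxation of fast fibres, and glycogen phosphorylase frees glucose units from glycogen for contraction. Fast and slow fibres carry different forms of many of these proteins. The eyeball is moved by skeletal muscles, and frog skin lies over the muscle of the body wall, while liver has no skeletal muscle of its own.

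The skin libraries held 35.7 to 36.8 M counts each, the liver libraries 38.3 to 39.2 M and the eye libraries 34.3 to 36.4 M. The tissue labels were checked by markers: hepatocyte genes summed to 50540 to 70200 FPKM (counts per kilobase of gene and per 1 M counted reads) in the liver libraries, and photoreceptor, lens and pigment epithelium genes to 25210 to 46770 FPKM in the eye libraries, each at no more than 28.7 FPKM in the other tissues. The eye libraries also differed in lens genes. CRYAA, a crystallin of the lens, was at 15.3, 2.35 and 20740 FPKM in albino eyes, against 20630, 30210 and 22380 FPKM in wild-type eyes, and BFSP2, a filament protein of lens fibres, was at 0, 0.0919 and 25.4 FPKM in albino eyes, against 380.7, 788.2 and 656.5 FPKM in wild-type eyes. Albino eyes 1 and 2 thus held almost no reads of these lens genes, and results in eyes are also given without them where the call changes.

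Albino skin 2 stood apart from the other skin libraries. Of 22 other genes of the thick and thin filaments, 13 were at 1 FPKM or more in it, against 5 to 6 in each of the other 5 skin libraries. Its creatine kinase CKM was at 69.1 FPKM and its myosin light chain MYL1 at 24.3 FPKM, while no other skin library passed 0.275 FPKM of CKM or 0.119 FPKM of MYL1. It was also the highest skin library for some markers of the eye list: PAX6 had 893 counts, against 0 to 7 in the other skin libraries, and CRYAB had 222 counts, against 20 to 40. PDE6A and BFSP1 were highest there too, at only 7 and 5 counts. Wild-type liver 2 and wild-type liver 3 were more alike than other replicate pairs: of 84 genes that were switched between at most 0.1 and at least 2 counts per 1 M among liver libraries, 92.9% had the same state in both, against 42.9% to 84.5% for the other pairs of livers. Their counts still differed by more than sampling noise, with a chi-square of 38 per gene, the lowest of all replicate pairs. That does not tell if they came from separate animals. They are kept as separate libraries, and results of the 7 genes are also given with them summed where that matters.

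Each comparison of albino with wild-type was fitted in edgeR over all genes that passed a filter on low counts, with Benjamini-Hochberg adjustment over those genes and a threshold of 0.05. Differences are log2 values of albino minus wild-type with their standard error, and levels are FPKM. Of the 7 genes, 7 passed the filter in eyes, 3 in liver and 6 in skin. PVALB and TNNC2 rose in albino eyes, TNNI2 rose in albino liver, and ACTN3 and MYBPC1 fell in albino liver. None passed in skin.

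**Figure D1:**
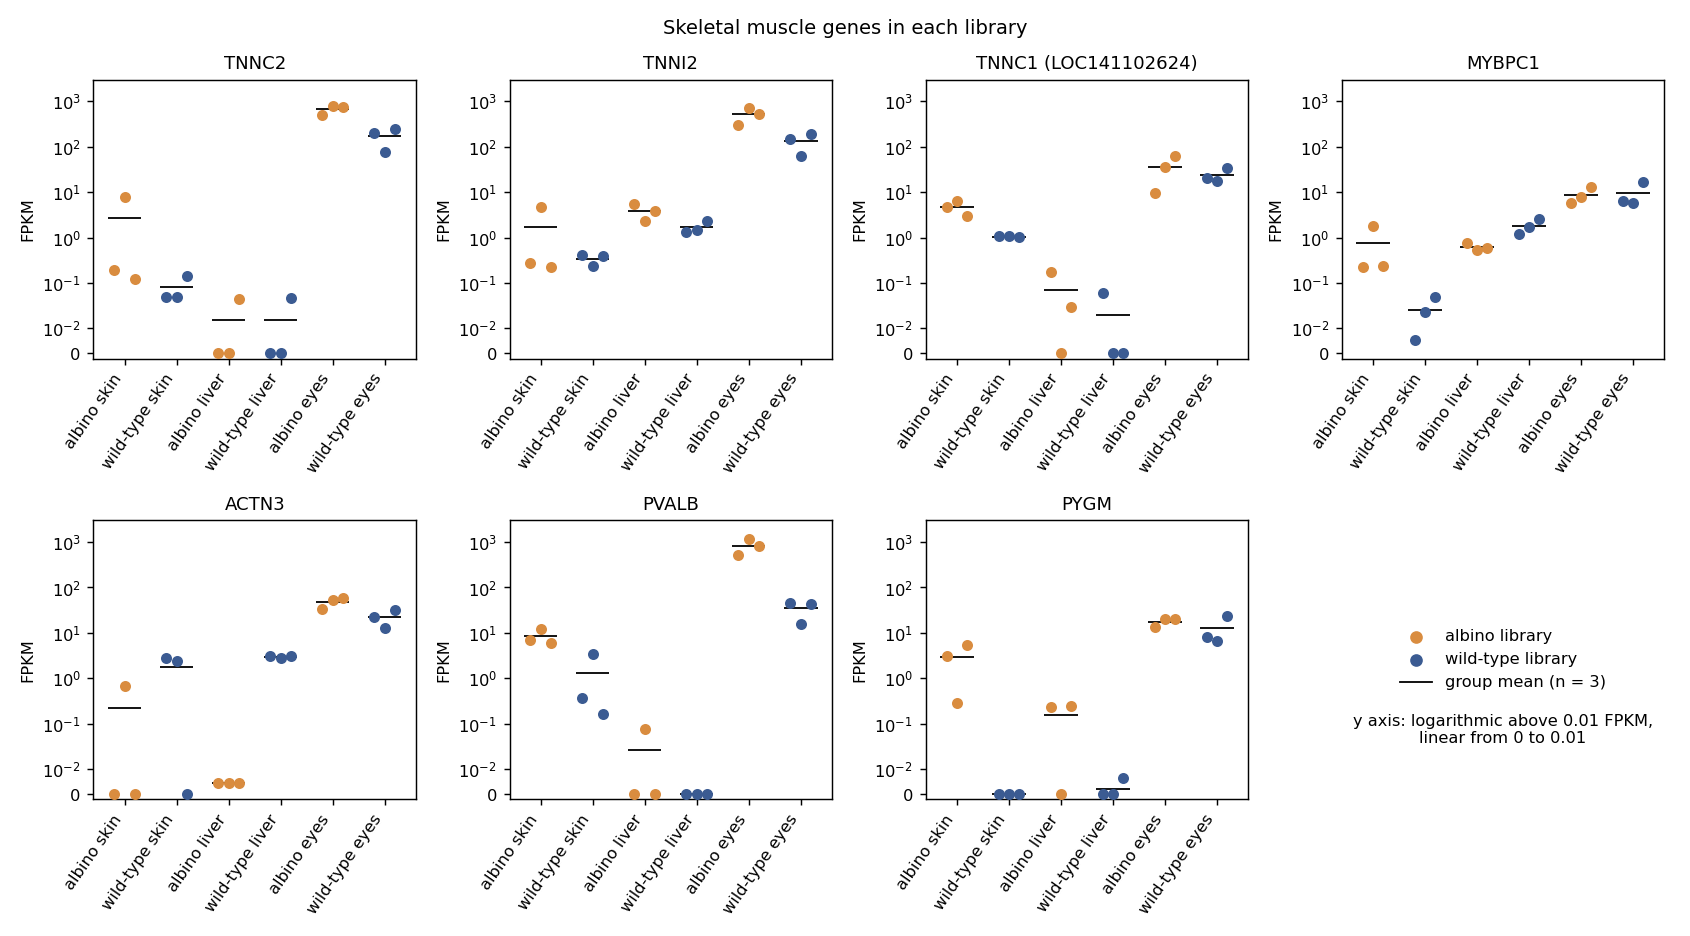
FPKM of the 7 genes in each of the 18 libraries, with albino in orange left of wild-type in blue for each tissue, a bar for the mean of 3 libraries, and an axis that is logarithmic above 0.01 FPKM and linear below. All 7 genes have their highest group in eyes, PVALB separates albino from wild-type eyes by the widest gap, and ACTN3 is at 1 count per library in albino liver.

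In eyes, 2 of the 7 genes were called higher and 0 lower, where 5.1% of 17817 tested genes were called higher and 6.1% lower. For 3 of the 7 every albino library lay above every wild-type library, which held for 19% of all tested genes. The median log2 difference of the 7 was 0.87, beside 0.01 over all tested genes. In bulk tissue, fewer cells of a type and less RNA per cell cannot be told apart, and this holds for every result below. How much eye muscle was taken with each eye is not recorded in the labels.

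In liver, 1 of the 3 tested genes was called higher and 2 lower, where 2.86% of 14990 tested genes were called higher and 2.9% lower. ACTN3, with 1 count in each albino liver, passed the count filter through its wild-type livers alone. The count of 2 lower among 3 therefore depends in part on the filter. In skin, edgeR called 0 of the 6 tested genes, where 0.0946% of 16921 tested genes were called in either direction. At an unadjusted p under 0.05 the skin count was 4 of 6, which held for 13% of all tested genes. DESeq2 called 4 of the 6 and limma on log2 FPKM with 1 or 0.1 added called 0. In 4 of the 6 every albino skin library lay above every wild-type skin library, where 10.4% of all tested genes were arranged so, and in 0 of the 6 below, where 9.43% were. Their median log2 difference was 2.48 in skin, also with PYGM set to its bound, beside 0.01 over all tested genes. PYGM, with 0 counts in each wild-type skin, and MYBPC1, with at most 9, passed the count filter through their albino libraries alone. For these 2 genes, passing already required reads in all 3 albino libraries, which sets the groups apart. TNNC2, raised in 1 albino skin library, was dropped by the same filter. Both counts of 4 of 6 and the median therefore depend in part on the filter, and do not by themselves show a shared rise.

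**Figure D2:**
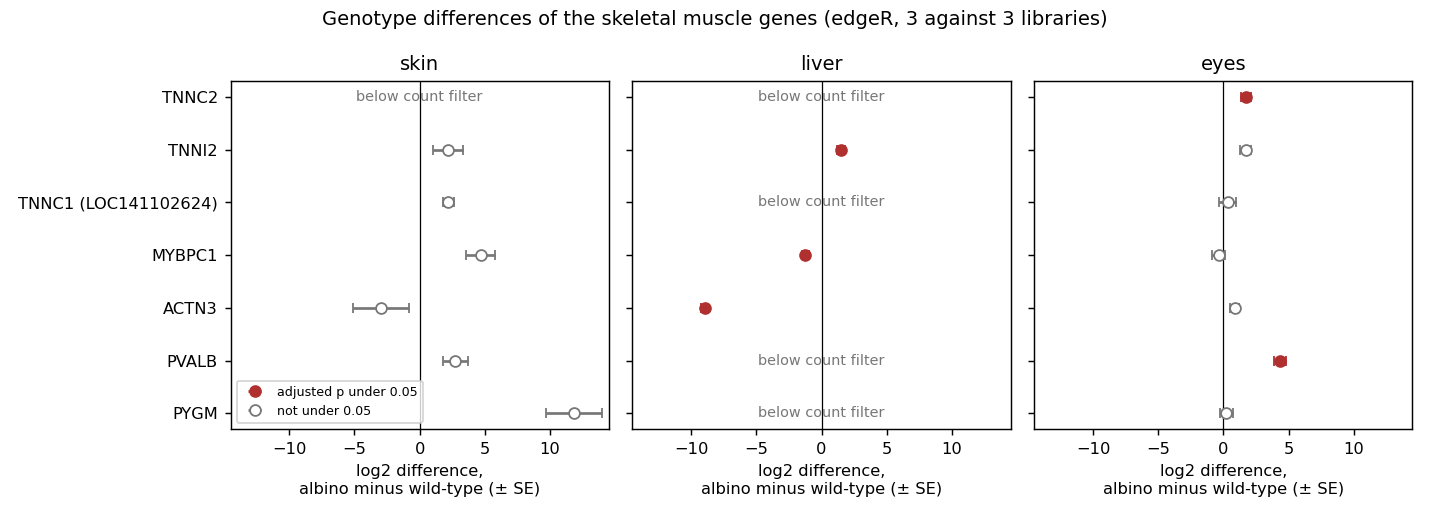
Log2 difference of albino minus wild-type with its standard error for the 7 genes in skin, liver and eyes (edgeR, 3 against 3 libraries); filled points passed an adjusted p of 0.05, open points did not, and genes below the count filter are marked. Filled points are PVALB and TNNC2 in eyes and TNNI2, MYBPC1 and ACTN3 in liver.

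TNNC2 encodes fast troponin C, the calcium sensor of the thin filament in fast fibres. It stood at 496.3, 803.7 and 738.1 FPKM in albino eyes, against 196.8, 78.4 and 245.3 FPKM in wild-type eyes. The groups did not overlap, and albino eyes were higher by 1.74 ± 0.38 on the log2 scale, a 3.34-fold difference (edgeR adjusted p = 0.0335). The call was lost without wild-type eyes 1 (adjusted p = 0.0828) and without albino eyes 1 (0.0581), 2 (0.110) or 3 (0.0767), as well as in 1 fit of all 18 libraries (0.329), while DESeq2 and limma kept it. Without albino eyes 1 and 2 together the difference was 1.90 ± 0.53 (0.285). In albino skin TNNC2 had 8, 318 and 5 counts, against 2, 2 and 6 counts in wild-type skin. Albino skin 2 held nearly all of these reads, at 7.63 FPKM, and the gene was below the count filter in that tissue. In liver it had 2 counts over the 3 albino libraries and 2 counts over the 3 wild-type libraries, which is within the floor of 3 counts per group.

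TNNI2 encodes fast troponin I, the subunit that blocks the binding of myosin until calcium arrives. In eyes it followed the levels of TNNC2, with 304.3, 725.2 and 521.8 FPKM in albino and 147.3, 63.4 and 191.9 FPKM in wild-type. The groups did not overlap, yet the log2 difference of 1.71 ± 0.44 missed the threshold (edgeR adjusted p = 0.0559). DESeq2 (adjusted p = 6.29e-05), limma with 1 added (0.0316) or 0.1 added (0.0392) and edgeR scaled by library totals alone (0.0460) put it past the threshold.

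Unlike TNNC2, TNNI2 was well above 0 in liver. It had 255, 107 and 182 counts in albino livers (5.49, 2.30 and 3.86 FPKM), against 62, 67 and 104 counts in wild-type livers (1.34, 1.45 and 2.26 FPKM). All 3 albino livers lay above all 3 wild-type livers, the nearest values being 2.30 and 2.26 FPKM. The log2 difference was 1.47 ± 0.31, a 2.76-fold difference (edgeR adjusted p = 0.0331). The call was lost without wild-type liver 2 (0.147) or 3 (0.0731), without albino liver 1 (0.0580) or 3 (0.0893), and with wild-type liver 2 and 3 summed (0.101). It was also lost with scaling by library totals (0.0723), in 1 fit of all 18 libraries (0.323) and in limma with 1 added (0.118) or 0.1 added (0.0947). In skin TNNI2 had 0.274, 4.67 and 0.229 FPKM in albino, against 0.412, 0.233 and 0.384 FPKM in wild-type. Apart from albino skin 2 the groups overlapped, and the difference of 2.20 ± 1.14 (adjusted p = 0.464) turned to -0.33 without that library.

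TNNC1 (LOC141102624) encodes the troponin C of slow skeletal fibres and of the heart. In eyes it stood at 9.51, 35.6 and 62.6 FPKM in albino and at 21.0, 17.7 and 34.0 FPKM in wild-type. The albino libraries enclosed the wild-type range, and the difference of 0.32 ± 0.68 did not pass (edgeR adjusted p = 0.792). In skin the gene had 153, 212 and 96 counts in albino (4.76, 6.54 and 2.99 FPKM), against 34, 34 and 33 counts in wild-type (1.06, 1.08 and 1.02 FPKM). The wild-type libraries were nearly equal and all albino libraries were above them, at a log2 difference of 2.21 ± 0.42, a 4.61-fold difference. Its adjusted p of 0.122 in edgeR missed the threshold, and its 0.000211 in DESeq2 passed it. Without albino skin 2 the difference was 2.04. In liver TNNC1 had 7 counts over the albino libraries and 2 over the wild-type libraries, a ratio of 4.21 with a 95% counting interval from 0.801 to 41.5. Such intervals, here and below, cover counting error only.

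Other troponin genes in eyes did not pass the test. TNNT1, slow troponin T, had a log2 difference of -0.85 ± 0.72 (edgeR adjusted p = 0.486), and TNNI1, slow troponin I, had 0.43 ± 0.65 (0.705). TNNT3, fast troponin T, had 429.0, 695.0 and 603.8 FPKM in albino eyes, against 184.4, 100.3 and 298.9 FPKM in wild-type eyes. These did not overlap, and the log2 difference of 1.32 ± 0.36 had an adjusted p of 0.0629. Genes of the same troponin subunit, such as TNNT1 and TNNT3, are close relatives. No source used here says how reads matching more than 1 gene were counted, so reads could be split between such genes.

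MYBPC1 encodes the slow form of myosin binding protein C, which sits on the thick filament and tunes how myosin heads engage. Its eye levels were 5.81, 8.01 and 12.8 FPKM in albino and 6.41, 5.77 and 16.8 FPKM in wild-type, and the groups overlapped. The log2 difference there was -0.37 ± 0.51 (edgeR adjusted p = 0.670), and it was 0.26 without wild-type eyes 3 and 0.18 without albino eyes 1 and 2.

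In liver MYBPC1 had 144, 104 and 116 counts in albino (0.749, 0.540 and 0.595 FPKM), against 224, 333 and 486 counts in wild-type (1.17, 1.74 and 2.55 FPKM). All albino livers were below all wild-type livers, and MYBPC1 fell by 1.25 ± 0.28 on the log2 scale (edgeR adjusted p = 0.0368). Without wild-type liver 2 (0.139) or 3 (0.136), without albino liver 2 (0.112) or 3 (0.124), or with wild-type liver 2 and 3 summed (0.130), the call was lost. It was lost too in 1 fit of all 18 libraries (0.329) and in limma with 1 added (0.0647). In skin MYBPC1 had 41, 332 and 43 counts in albino (0.227, 1.82 and 0.238 FPKM), against 1, 4 and 9 counts in wild-type (0.00553, 0.0225 and 0.0492 FPKM). Every albino library was above every wild-type library, at 4.69 ± 1.13 on the log2 scale (edgeR adjusted p = 0.173, DESeq2 0.000228). The difference was 3.16 without albino skin 2 (edgeR adjusted p = 0.458).

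ACTN3 encodes alpha-actinin 3, which crosslinks actin at the Z disc of fast fibres. Liver held the widest genotype difference of the 7 genes that passed. ACTN3 had 1, 1 and 1 counts in albino livers, against 689, 619 and 705 counts in wild-type livers, which were 3.04, 2.73 and 3.13 FPKM. The ratio of wild-type to albino was 558, with a counting interval from 190.7 to 2708, and ACTN3 fell in albino liver at an adjusted p of 2.35e-06 in edgeR. It stayed past the threshold under all 15 alternatives run for it (adjusted p up to 0.0208). ACTN3 passed the count filter in liver through the wild-type libraries alone. Most other fast muscle genes were near 0 in wild-type liver, TNNI2 excepted: TNNC2 had 2 counts over the group and PVALB 0, while MYL1, TTN and RYR1 had 0 counts and CKM 5.

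In eyes ACTN3 had 33.7, 53.5 and 59.4 FPKM in albino, against 22.8, 12.9 and 32.4 FPKM in wild-type. The lowest albino library was just above the highest wild-type library in FPKM, and after scaling between libraries the groups overlapped. The log2 difference was 0.87 ± 0.33 (edgeR adjusted p = 0.139, DESeq2 0.0310). In skin ACTN3 was either counted many times or not at all. It had 0, 144 and 0 counts in albino skin, against 601, 508 and 0 counts in wild-type skin. The difference of -2.95 ± 2.14 had an adjusted p of 0.615, and the single albino library with reads was albino skin 2.

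The genes beside ACTN3 did not show this switch. RBM14, its neighbour on one side in the RefSeq order of assembly ASM4218655v1, had 850, 531 and 705 counts in albino livers, against 874, 774 and 764 counts in wild-type livers. SIPA1, on the other side, had 469, 430 and 389 counts in albino livers, against 631, 383 and 469 counts in wild-type livers. In both of these genes the groups overlapped. None of the 7 genes overlaps another gene in that annotation.

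**Figure D3:**
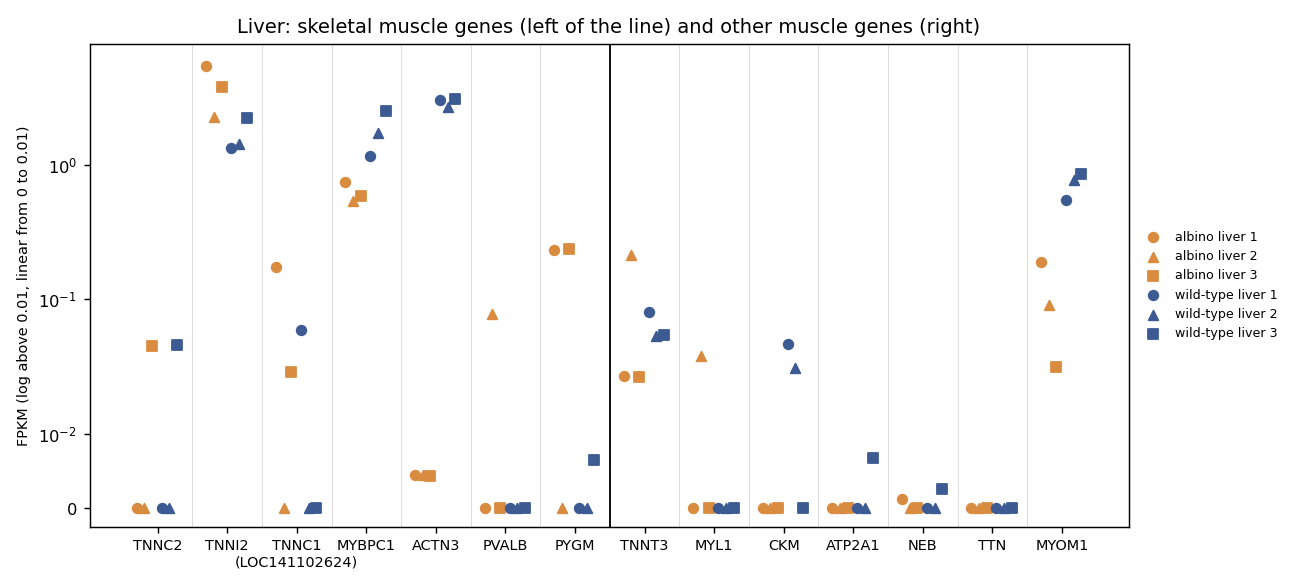
FPKM in the 6 liver libraries, with the 7 genes left of the line and other muscle genes right of it, albino in orange left of wild-type in blue, and an axis that is logarithmic above 0.01 FPKM and linear below. ACTN3, MYBPC1 and MYOM1 are higher in all wild-type livers and TNNI2 in all albino livers, while MYL1, CKM, ATP2A1, NEB and TTN are at or near 0 in every library.

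PVALB encodes parvalbumin, a calcium buffer of fast fibres that in mammals is also made by some neurons, in the retina among other places. It had 522.8, 1186 and 799.5 FPKM in albino eyes, against 44.6, 15.8 and 43.4 FPKM in wild-type eyes. The lowest albino eye was far above the highest wild-type eye. The means were 836.0 ± 332.9 FPKM in albino eyes and 34.6 ± 16.3 FPKM in wild-type eyes (SD, n = 3 each). The log2 difference was 4.37 ± 0.47, a 20.6-fold difference (edgeR adjusted p = 0.00550), and the call held under 14 of 15 alternatives. It was lost without albino eyes 1 and 2 together (4.34 ± 0.48, adjusted p = 0.0896), a fit with 1 albino library that is assumed to vary like the wild-type ones.

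In skin PVALB had 172, 293 and 147 counts in albino (7.11, 12.0 and 6.10 FPKM), against 9, 82 and 4 counts in wild-type (0.373, 3.46 and 0.164 FPKM). All albino skins were above all wild-type skins. The log2 difference of 2.75 ± 0.97 missed the threshold (edgeR adjusted p = 0.317, DESeq2 0.0421), and without wild-type skin 2 it was 4.95 (edgeR adjusted p = 0.0441). In albino skin 1 and 3 the reads of PVALB came without those of TNNC2, which had 8 and 5 counts there. In liver PVALB had 2 counts over the albino libraries and 0 over the wild-type libraries, within the floor.

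The table holds 3 further genes described as parvalbumins, which were looked up after the values of PVALB were seen. Parvalbumin beta, LOC141101720, was the most abundant in eyes, at 1388, 2243 and 1787 FPKM in albino and at 807.5, 334.4 and 961.2 FPKM in wild-type. The groups did not overlap, and the log2 difference of 1.13 ± 0.34 had an adjusted p of 0.0720. LOC141147686, described as parvalbumin beta 3-like, had 1.31, 30.1 and 60.7 FPKM in albino eyes, against 28.9, 18.8 and 46.9 FPKM in wild-type eyes, and these overlapped. The third, LOC141147688, had 6 counts over the albino eyes and 3 over the wild-type eyes. Whether reads were shared among the 4 parvalbumins cannot be read from counts per gene.

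PYGM encodes the glycogen phosphorylase of muscle. In eyes it had 13.4, 19.8 and 19.9 FPKM in albino, against 7.94, 6.72 and 23.2 FPKM in wild-type, and wild-type eyes 3 lay above all others. The log2 difference was 0.23 ± 0.50 (edgeR adjusted p = 0.796). It was 0.99 without wild-type eyes 3 (adjusted p = 0.0463), and it was -0.06 without wild-type eyes 1 and -0.03 without wild-type eyes 2.

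In skin PYGM was present in albino libraries alone, with 468, 43 and 810 counts (3.16, 0.288 and 5.48 FPKM), against 0 counts in each wild-type skin. With wild-type skin put at a floor of 3 counts for the group as a whole, albino skin was at least 445.2-fold higher. The albino library with the least PYGM was albino skin 2, the library with the most TNNC2. The adjusted p was 0.161 in edgeR and 6.48e-06 in DESeq2, and in edgeR it was 0.0603 without albino skin 2. In liver PYGM had 37, 0 and 38 counts in albino, against 0, 0 and 1 counts in wild-type. That is a ratio of 90.2 with a counting interval from 15.7 to 3609, between libraries in which albino liver 2 had none, and the gene was below the count filter there.

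For the liver form PYGL and the brain form PYGB of the enzyme no difference passed the test in skin or eyes. In skin PYGL had a log2 difference of 0.25 ± 0.25 (edgeR adjusted p = 0.712) and PYGB one of -0.48 ± 0.18 (0.339). In eyes PYGL had 0.13 ± 0.19 (0.703) and PYGB 0.16 ± 0.16 (0.531). SF1 and RASGRP2, the genes on either side of PYGM in the RefSeq order, were counted in every skin library. SF1 had 902, 1321 and 1797 counts in albino skin, against 1169, 1429 and 1183 counts in wild-type skin.

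**Figure D4:**
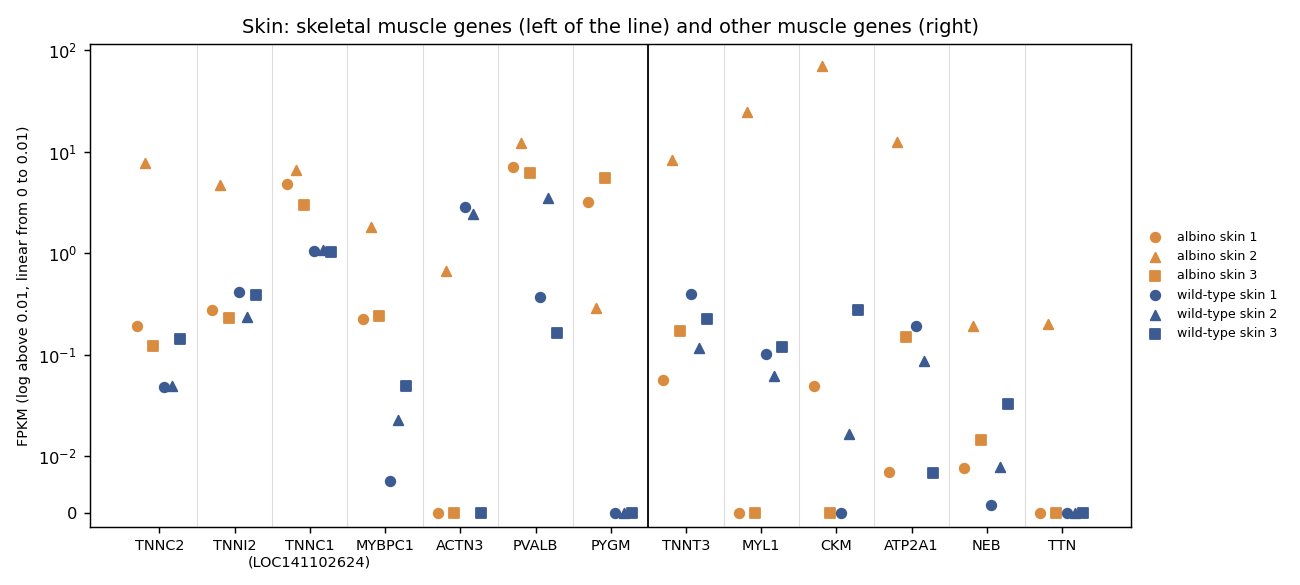
FPKM in the 6 skin libraries, with the 7 genes left of the line and other muscle genes right of it, albino in orange left of wild-type in blue, a symbol for each replicate number, and an axis that is logarithmic above 0.01 FPKM and linear below. Albino skin 2 is the highest library for TNNC2, TNNI2, MYBPC1 and all 6 other muscle genes, while PYGM is lowest there among the albino libraries and ACTN3 is highest in wild-type skin 1 and 2.

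The members therefore fell into different arrangements among skin libraries. TNNC2 and TNNI2 were raised in albino skin 2 alone. PVALB, MYBPC1 and TNNC1 (LOC141102624) were above wild-type in all 3 albino skins, with albino skin 2 the highest, PYGM was above in all 3 with albino skin 2 the lowest, and ACTN3 was at 0 in 3 of the 6 libraries of both genotypes. Sums of the 8 fibroblast markers were 1516, 5009 and 929.1 FPKM in albino skin, against 2235, 1154 and 2608 FPKM in wild-type skin, highest in albino skin 2 as well. None of the 8 was at 0 in any skin library. Sums of the 9 smooth muscle markers were 933.8 to 1358 FPKM in albino skin and 873.1 to 1467 FPKM in wild-type skin, with none at 0. No gene of the 8 marker lists was called in skin, and these lists also cover heart, nerve, fat, epidermis, liver and eye. The part of these cells in the skin differences was not tested.

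Whether the genotype difference itself differed between tissues was tested as an interaction over the 12 libraries of each pair of tissues. Between eyes and liver, edgeR called 1 of the 7 genes, where 3.42% of 19128 tested genes were called. That was ACTN3, whose difference in eyes exceeded that in liver by 9.86 ± 0.56 on the log2 scale (adjusted p = 1.41e-05), with 3 counts in albino liver behind it. It was lost in 1 fit of all 18 libraries (0.0515) and held in the other 21 alternatives. Between skin and liver, 0 of the 6 tested genes passed, where 0.27% of 18153 tested genes did. At an unadjusted p under 0.05 there was 1 of the 6, where 9.71% of all tested genes were, namely MYBPC1, with a log2 interaction of 5.94 ± 1.15 (adjusted p = 0.0725). DESeq2 called 1 and limma called 1 with 1 added and 0 with 0.1 added.

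Between skin and eyes, 0 of the 7 passed in edgeR, where 0.991% of 19477 tested genes did, and 3 of the 7 had an unadjusted p under 0.05, which 13.4% of all tested genes had. DESeq2 called 2 and limma called 0. The smallest adjusted p was that of PYGM (0.0612), which became 0.0152 without albino skin 2. MYBPC1 followed with a log2 interaction of 5.12 ± 1.27 (adjusted p = 0.0980). The absence of a call in these tests does not show that PVALB, for which the skin and eye differences were 2.75 ± 0.97 and 4.37 ± 0.47, responded alike. Its interaction of skin minus eyes was -1.62 ± 1.08 (adjusted p = 0.577).

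The order of mean levels put both eye groups above all other groups for each of the 7 genes. For PVALB, TNNC2, TNNI2 and ACTN3 albino eyes came first, and the single FPKM values of the eye groups did not overlap. After scaling between libraries those of ACTN3 overlapped, which left 3 of the 7 genes, beside 19% of all tested genes. For PYGM, TNNC1 (LOC141102624) and MYBPC1 the FPKM values of the eye groups overlapped, and for MYBPC1 wild-type eyes had the higher mean. The lower of the eye groups lay clear of the next group in all 7. How many of all genes were arranged so was not counted. After the eyes came albino skin for PVALB, PYGM, TNNC2 and TNNC1 (LOC141102624), wild-type liver for ACTN3 and MYBPC1, and albino liver for TNNI2. For TNNC2, TNNI2, ACTN3 and MYBPC1 this group overlapped the next lower group in single libraries. For PYGM, TNNC1 (LOC141102624) and PVALB it did not.

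Among wild-type libraries, eyes against liver gave 7 of 7 genes higher, where 38.6% of 18047 tested genes were called higher. PVALB, PYGM, TNNC2 and TNNC1 (LOC141102624) had 0, 1, 2 and 2 counts over the wild-type livers and passed the count filter through the eyes alone. For these genes passing already set the groups apart, so the count of 7 of 7 depends in part on the filter. The smallest differences were those of MYBPC1, 1.39 ± 0.45 on the log2 scale (edgeR adjusted p = 0.0280), and ACTN3, 1.89 ± 0.28 (0.000552). MYBPC1 was lost without wild-type liver 1 (0.0902) or 2 (0.0806), without wild-type eyes 3 (0.0534), with wild-type liver 2 and 3 summed (0.0625) and in 1 fit of all 18 libraries (0.0676), where ACTN3 was lost too (0.190). TNNI2 differed by 5.27 ± 0.41 (1.95e-05). TNNC2 had 21350 counts over the wild-type eyes and 2 over the wild-type livers, a ratio of 5617 with a counting interval from 1555 to 46380. PVALB, with 2490 counts in wild-type eyes and 0 in wild-type liver, was at least 436.7-fold higher in eyes.

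Wild-type skin against wild-type eyes gave 6 of 7 genes lower, where 29.2% of 18338 tested genes were called lower. PYGM, with 0 counts in each wild-type skin, TNNC2, with 2, 2 and 6, and MYBPC1, with 1, 4 and 9, passed the count filter through the eyes alone. For these genes passing already set the groups apart, so the count of 6 of 7 depends in part on the filter. TNNC2 was lower in skin by a log2 difference of -10.86 ± 0.71 (edgeR adjusted p = 3.43e-05), TNNC1 (LOC141102624) by -4.41 ± 0.33 (5.77e-05) and PVALB by -4.63 ± 1.01 (0.00706). ACTN3 was the exception, at -3.71 ± 1.36 (0.0522), and it passed without wild-type skin 3 (0.00135), the wild-type skin with 0 counts.

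Wild-type skin against wild-type liver split the genes. Of the 4 tested, 1 was higher in skin and 2 were lower, where 25.3% of 16919 tested genes were called higher and 19.1% lower. MYBPC1, with 1, 4 and 9 counts in wild-type skin, passed the count filter through the livers alone, and TNNC1 (LOC141102624) through the skins alone. For both genes passing already set the groups apart, so these counts of calls depend in part on the filter. TNNC1 (LOC141102624) was higher in skin, with 101 counts over the skin group and 2 over the liver group (adjusted p = 0.00620, ratio 28.3 with a counting interval from 7.64 to 237.1). TNNI2 was lower in skin by -3.16 ± 0.44 (0.00110) and MYBPC1 by -6.94 ± 0.70 (0.000234). ACTN3 differed by -1.81 ± 1.25 (0.292) and passed without wild-type skin 3 (0.00235).

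The other genes of muscle were taken from 6 lists, which hold 99 rows in all besides the 7 genes. In eyes 96 of these were tested, of which 6 were called higher and 2 lower, beside the 5.1% and 6.1% of all tested genes. The count called higher is near that share. The list of energy metabolism had 4 of 13 called higher and 0 lower, with a median log2 difference of 0.56 beside 0.01 over all tested genes. Those with the smallest p were AK1, adenylate kinase, at 1.30 ± 0.18 (edgeR adjusted p = 0.00712), EEF1A2, a translation elongation factor of muscle and neurons, at 1.63 ± 0.23 (0.00814), and GYG1, the primer of glycogen, at 0.56 ± 0.10 (0.0154). AK1 stood at 81.2, 110.5 and 99.2 FPKM in albino eyes, against 36.8, 23.0 and 39.7 FPKM in wild-type eyes, so the groups lay far apart. CKM, the creatine kinase of muscle, reached 3060 ± 1314 FPKM in albino eyes and 910.0 ± 402.9 FPKM in wild-type eyes (SD, n = 3 each) and did not pass, at 1.51 ± 0.44 (0.0704).

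Among genes of excitation and calcium handling, 1 of 21 was called higher in albino eyes and 0 lower, near the 5.1% of all tested genes called higher, with a median of 0.27. It was SLN, sarcolipin, a small regulator of the calcium pump, with 141.8, 212.1 and 144.9 FPKM in albino eyes, against 34.9, 15.6 and 35.5 FPKM in wild-type eyes. The groups were far apart, at 2.30 ± 0.28 on the log2 scale (edgeR adjusted p = 0.00626). The calcium pump of fast fibres ATP2A1 had 1.01 ± 0.47 (0.206) and the calcium release channel RYR1 0.30 ± 0.40 (0.662).

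Of the 22 tested genes of the thick and thin filaments, edgeR called 0 in eyes and 8 had an unadjusted p under 0.05, which 29.8% of all tested genes had, with a median of 0.33. MYL1, a light chain of fast myosin, had 1.32 ± 0.37 (edgeR adjusted p = 0.0616), while nebulin NEB had -0.10 ± 0.59 (0.931) and titin TTN -0.38 ± 0.59 (0.711). Of the 22 tested genes of the Z disc, M line and assembly, 0 were called and 2 had an unadjusted p under 0.05, with a median of 0.03. Of the 6 tested relatives of the 7 genes, 0 were called and 0 had an unadjusted p under 0.05, with a median of 0.09. MYBPC3, the heart form of myosin binding protein C, had -1.67 ± 0.87 (0.270). No row matched ACTA1, MYLPF, ACTN2 or MYBPC2, which are not analysed here.

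Muscle regulators moved in both directions in eyes. MYMK, the myomaker that fuses myoblasts, rose by 1.21 ± 0.29 (edgeR adjusted p = 0.0384), with 1.32, 1.97 and 1.91 FPKM in albino eyes, against 0.559, 0.530 and 0.765 FPKM in wild-type eyes. VGLL2, a transcription cofactor of muscle, fell by 1.36 ± 0.28 (0.0242), and MEF2C, a transcription factor of muscle and neurons, fell by 1.06 ± 0.27 (0.0499). Of 13 tested, 1 was thus called higher and 2 lower, beside 5.1% and 6.1% of all tested genes, with a median of 0.22. The count called higher is near that share. MYOD1, which commits cells to muscle, had 0.43 ± 0.44, and MYOG, which drives their differentiation, had -1.72 ± 0.73 (0.166).

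Markers of other cells differed between the eye groups in some lists and not in others. Their calls stand beside 5.1% of all tested genes called higher and 6.1% called lower. Sums of the 8 fibroblast markers were 1067, 948.4 and 966.9 FPKM in albino eyes, against 1179, 1398 and 1745 FPKM in wild-type eyes, with none at 0, and 2 of the 8 were called lower in albino. Sums of the 9 smooth muscle markers were 123.7 to 205.9 FPKM in albino eyes and 89.0 to 127.4 FPKM in wild-type eyes, with none at 0 and 0 called. The 6 heart markers summed to 3.30 to 8.82 FPKM in albino eyes and 6.98 to 22.8 FPKM in wild-type eyes, with up to 2 at 0 in a library and 0 called. The 9 nerve and Schwann cell markers summed to 235.1 to 393.6 FPKM in albino eyes and 189.1 to 245.0 FPKM in wild-type eyes, with none at 0 and NEFM called lower. Of the 10 eye markers 2 were called higher and 0 lower. RPE65 of the pigment epithelium was called higher, while CRYAA and BFSP2 of the lens, nearly absent in albino eyes 1 and 2, were not called. Among the remaining lists CIDEC of fat cells was called lower, while 2 of the 3 tested fat cell markers had a positive difference (median 0.48). PERP of epidermis was called higher, in a list with 3 positive and 2 negative differences among 5 tested (median 0.13). The part of these cells in the results in eyes was not tested.

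In liver 31 genes of the 6 lists were tested, of which 2 were called higher and 1 lower, beside 2.86% and 2.9% of all tested genes. TMOD4, which caps thin filaments, rose by 1.98 ± 0.28 (edgeR adjusted p = 0.00806), with 3.13, 3.31 and 6.12 FPKM in albino livers, against 1.04, 1.34 and 1.47 FPKM in wild-type livers. MYOM1, myomesin of the M line, fell by 2.52 ± 0.53 (0.0342), with 0.191, 0.0913 and 0.0314 FPKM in albino livers, against 0.554, 0.773 and 0.855 FPKM in wild-type livers. CACNB1, a subunit of the calcium channel, had 43 counts over the albino livers and 0 over the wild-type livers, at least 17.2-fold higher in albino (0.0198). It passed the count filter through the albino livers alone, with 16, 11 and 16 counts. Passing already set the groups apart, so this call depends in part on the filter. In these livers TTN, RYR1 and MYOD1 had no count.

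Of the marker lists in liver, the 8 fibroblast markers summed to 36.9 to 78.3 FPKM in albino and 36.4 to 58.0 FPKM in wild-type, with up to 1 at 0 and PDGFRA called higher. The 9 smooth muscle markers summed to 20.4 to 34.7 FPKM in albino livers and 18.5 to 23.7 FPKM in wild-type livers, with none at 0 and TAGLN called higher. The 4 fat cell markers summed to 1.80 to 2.64 FPKM in albino livers and 10.1 to 15.4 FPKM in wild-type livers, with up to 2 at 0 and LPL called lower. The 6 hepatocyte markers summed to 50830 to 70200 FPKM in albino livers and 50540 to 53180 FPKM in wild-type livers, with none at 0. FGB and FGG were called higher, and of the 5 tested, 4 had a positive difference and 1 a negative one. APOB was at 182.3 to 213.8 FPKM in albino livers, against 246.0 to 385.6 FPKM in wild-type livers. TTR had 3 counts over the albino livers and 59 over the wild-type livers. The part of these cells in the liver results was not tested.

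In skin 46 genes of the 6 lists were tested, edgeR called 0, and 8 had an unadjusted p under 0.05, beside 13% of all tested genes. ATP2A1 had a log2 difference of 5.40 ± 2.24 (adjusted p = 0.382) with 0.00712, 12.4 and 0.150 FPKM in albino, against 0.193, 0.0871 and 0.00704 FPKM in wild-type. Only albino skin 2 was high. NEB had 2.08 ± 1.43 (0.588). EEF1A2 differed in another way, with 2.99, 13.1 and 0.708 FPKM in albino, against 0.0301, 0.0307 and 0.208 FPKM in wild-type. All albino skins were above all wild-type skins, at 5.80 ± 1.36 (0.175), with 2, 2 and 14 counts in wild-type. Of all tested genes 10.4% were arranged so and 9.43% the other way. Other genes of the 6 lists were arranged so too, and some the other way.

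Because the summed level of muscle RNA varied between eye libraries, the genes were also set against TNNC2 within each library. PVALB stood at 105.3%, 147.5% and 108.3% of the TNNC2 FPKM in albino eyes, against 22.6%, 20.2% and 17.7% in wild-type eyes. Its ratio was 5.93-fold higher in albino eyes, and the groups lay far apart. TNNI2 stood at 61.3% to 90.2% in albino eyes and 74.9% to 80.9% in wild-type eyes, with a ratio of 0.938 between the group means and overlapping values.

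The other 4 genes of the 7 were lower relative to TNNC2 in every albino eye than in every wild-type eye. ACTN3 was 6.66% to 8.04% of TNNC2 in albino eyes and 11.6% to 16.4% in wild-type eyes, and PYGM was 2.46% to 2.71% in albino eyes and 4.04% to 9.47% in wild-type eyes. MYBPC1 was 0.997% to 1.73% in albino eyes and 3.26% to 7.36% in wild-type eyes, and TNNC1 (LOC141102624) was 1.92% to 8.48% in albino eyes and 10.6% to 22.6% in wild-type eyes. Parvalbumin beta (LOC141101720) was at 242.1% to 279.7% in albino eyes and 391.9% to 426.7% in wild-type eyes, opposite to PVALB. In a two-sided exact permutation test each of these and PVALB gave p = 0.1, the smallest that 3 against 3 libraries allow, or 0.114 with BH adjustment over the 8 ratios tested, and TNNI2 gave p = 0.7. With 3 against 3 libraries no ratio could reach a p under 0.05 in this test. A ratio of this kind describes unequal levels and not which gene changed. Other muscle genes set against TNNC2, which were not tested, went the same way. TNNT3 was at 81.8% to 86.5% in albino eyes and 93.7% to 128.0% in wild-type eyes. TNNT1, TNNI1, NEB and TTN were also lower in every albino eye, while ATP2A1 overlapped. Being lower relative to TNNC2, itself called higher in albino eyes, was thus not particular to genes of the 7. A gene at equal FPKM in all eye libraries would also be lower relative to TNNC2 in every albino eye. How many of all genes were arranged so was not counted, so these ratios do not show a pattern of muscle genes.

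**Figure D5:**
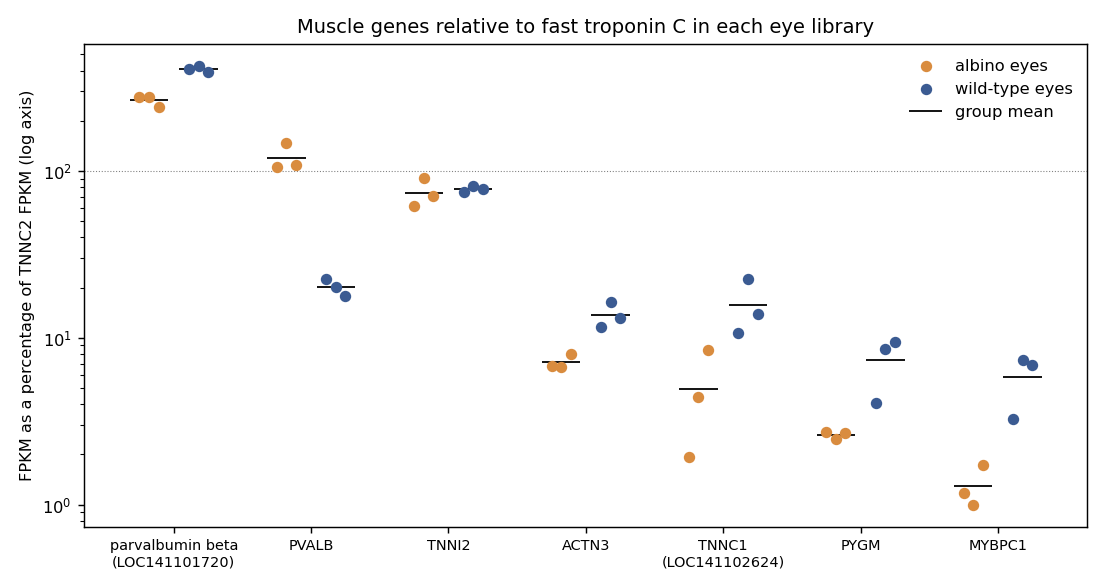
FPKM of muscle genes as a percentage of the TNNC2 FPKM of the same eye library, on a logarithmic axis, with albino eyes in orange left of wild-type eyes in blue and a bar for the mean of 3 libraries. PVALB is higher in all albino eyes, TNNI2 overlaps, and the other genes shown are lower in all albino eyes.

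Albino skin 2, the only skin library with enough TNNC2 for such ratios, had PVALB at 157.5%, TNNI2 at 61.2% and ACTN3 at 8.76% of TNNC2. PVALB was above and TNNI2 just below the range of the albino eyes, and ACTN3 lay between the ranges of the albino and the wild-type eyes. PYGM, at 3.77%, was also between those ranges. Its TNNC1 (LOC141102624) at 85.7% and MYBPC1 at 23.8% were above every eye library. Albino skin 1 and 3 held PVALB at 7.11 and 6.10 FPKM, TNNC1 (LOC141102624) at 4.76 and 2.99 FPKM and PYGM at 3.16 and 5.48 FPKM. Their TNNC2 was at only 0.194 and 0.121 FPKM. These genes thus also occurred in skin with little TNNC2, and their ratios in albino skin 2 are not directly comparable with those in eyes.

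The likeness of each gene to others was measured as the root mean square difference of centred log2(FPKM + 0.1) over the 18 libraries, among 13801 genes with at least 1 FPKM in at least 3 libraries. TNNC2 was closest to CASQ1 (0.624), ATP2A1 (0.632) and TNNT3 (0.633), which are a calcium store, a calcium pump and a troponin of fast fibres. MYBPC1 was closest to MYOM1 (0.601), then LOC141102621, a contactin-4-like gene (0.836), and CARNS1 (0.940). TNNC1 (LOC141102624) was closest to SLC24A4 (0.760), VIT (0.782) and SFRP1 (0.790). These 3 genes had matches with a difference under 1.

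The other 4 had weaker matches, none a gene of the muscle lists. TNNI2 was closest to CLSTN3 (1.02), CNGB1 (1.08) and TRPC1 (1.13), and PYGM to GDF11 (1.07), MARCHF9 (1.30) and PHF24 (1.31). PVALB was closest to RGR (1.497), FAIM2 (1.63) and ADTRP (1.64), and ACTN3 to TPD52L1 (1.35), MAPRE3 (1.61) and LOC141139366, an ornithine decarboxylase (1.69). Between the 7 genes themselves, the closest pair was PYGM with TNNC1 (LOC141102624), at 1.60, and ACTN3 was 2.30 or more from each of the others. All of these values share the tissue contrast of the same 18 libraries, and they are descriptions with no test.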

How the data were processed

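Total RNA was extracted with TRIzol and sequenced after library construction with a VAHTS Universal V10 kit, per the labels' protocols. HISAT2 and HTSeq are the tools listed in the submitters' processing notes, with no version. Genome build, strandedness and the counting of reads with several matches are unstated in the sources used here. The deposited counts are the authors' whole-number read counts for each gene, not normalized. The deposited FPKM values were made by the authors from those counts, with 1 length per gene and counted reads as the total. All 24636 gene identifiers matched a RefSeq gene table (assembly ASM4218655v1), used to look up names and neighbours, and no sequence or coordinate is given.

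The members, the gene lists and the naming rule were chosen with earlier results of these data known. The rule named all 7 genes, up to 3 called genes per list and tissue with the smallest p, a set of muscle genes and their relatives whether called or not, and the 3 genes most like each member. LOC genes joined a list only where their description lacked the word like.

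In R 4.3.3, edgeR 4.0.16 kept genes by filterByExpr, scaled libraries by TMM and fitted robust quasi-likelihood models, with adjustment by BH at 0.05. The SE of a log2 difference is its size over the square root of F. Where a group had 0 counts, 3 counts for the whole group served as the floor, and 1 to 3 counts are given as a ratio with an exact 95% interval. Ratios to TNNC2 were compared by exact permutation tests. The code was tested on simulated data. Alternatives were DESeq2 1.42.0, RLE scaling, library totals, no filter, 1 fit of all 18 libraries, a replicate block, limma 3.58.1 on log2(FPKM + 1) or log2(FPKM + 0.1), leaving out each library, summing wild-type liver 2 and 3, and leaving out albino eyes 1 and 2, the last chosen after seeing the data.

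Whether equal replicate numbers pair libraries was checked by the correlation of deviations from group means across genes. Skin and eyes of the same number correlated in both genotypes (r from 0.155 to 0.471). With liver the same held in albino (0.180 to 0.275), while in wild-type the values with liver were 0.0551 to 0.360, with replicate 3 under 0.1. Equal numbers of different genotypes did not (r from -0.140 to 0.0545). Equal numbers thus went together between skin and eyes of a genotype, and whether they mark 1 animal was not tested. The main fits between tissues treated all libraries as independent, with the replicate block as an alternative. Wild-type liver 3 correlated more with wild-type skin 2 (0.234) and eyes 2 (0.171) than with skin 3 (0.0551) and eyes 3 (0.0875). Whether wild-type liver 2 and 3 came from 1 animal was not tested, and p-values in liver would be too small if they did. The result of 1 eye marker gene is not reported here.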

Additional observations from a re-analysis of the deposited data

Results flagged for a closer look

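The genotype difference of ACTN3 in eyes exceeded that in liver by 9.86 ± 0.56 on the log2 scale (edgeR adjusted p = 1.41e-05). It came to notice because the difference between tissues itself passed the test. ACTN3 was 33.7 to 59.4 FPKM in albino eyes and 12.9 to 32.4 FPKM in wild-type eyes, and it had 3 counts over the albino livers and 2013 counts over the wild-type livers. The effect in liver ran lower in 3 of 3 albino libraries, while that in eyes was not called. The size of the interaction rests on the 3 albino liver counts and was 3.11 in limma on log2(FPKM + 1). What lies behind it was not tested.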

How the results depend on the processing

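Counts of called members that moved by over 1.5 times were as follows. DESeq2 called 4 in skin and 4 in eyes, against 0 and 2 in edgeR, and for the interactions 1 between skin and liver, 2 between skin and eyes and 2 between eyes and liver. A fit of all 18 libraries called 2 in skin, 1 in liver and 1 in eyes, and 1, 2 and 0 in those interactions. Limma with 1 added called 1 in liver, 1 between skin and liver and 3 between eyes and liver, and with 0.1 added it called 3 between eyes and liver. Wild-type liver 2 and 3 summed gave 1 in liver. Leaving out albino eyes 1 and 2 together, chosen after seeing the data, gave 0 in eyes, where 1 albino library remained, and MYBPC1 turned to 0.183. Leaving out 1 library gave 0 to 1 members in skin, 1 to 3 in liver and 1 to 3 in eyes. In the interactions it gave 0 to 0 between skin and liver, 0 to 1 between skin and eyes and 1 to 2 between eyes and liver, and among wild-type tissues 3 to 4, 6 to 7 and 6 to 7. The replicate block gave 1 in eyes, where numbers do not pair the genotypes, and TNNC2 then had an adjusted p of 0.0582. MYBPC1 in liver had 0.0620 under the block. Between tissues the block changed no count of called members. Direction turned for TNNI2 in skin without albino skin 2 (range over left-out libraries -0.33 to 2.71), for PYGM in eyes without wild-type eyes 1 or 2 (-0.0605 and -0.03, range -0.0605 to 0.99), for MYBPC1 in eyes without wild-type eyes 3 (range -0.77 to 0.26) and for TNNC1 (LOC141102624) in eyes without albino eyes 3 (range -0.39 to 0.77). The cause was not tested. Of values for single members, 519 kept direction and side of the threshold, 25 gained and 32 lost the threshold. Scaling by library totals shifted the median of all genes by -0.28 in liver and 0.28 in eyes, and no member changed direction under it. Alternatives were run for the 7 members and not for the other named genes. In skin and liver, counts of a few reads limit what can be seen of TNNC2, PVALB and PYGM.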
